A study of Mus musculus with 8 samples.

Results

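The 10 genes described here carry peptides to the cell surface on major histocompatibility complex (MHC) class I. They were chosen by name, as the class I heavy chains *H2-K1* and *H2-D1*, their shared light chain *B2m*, the peptide loading genes *Tap1*, *Tap2* and *Tapbp*, the immunoproteasome subunits *Psmb8*, *Psmb9* and *Psmb10*, and the regulator *Nlrc5*. All 10 are among the 55421 genes of the count table and among the 20477 that passed the filter on low counts. Reads on these 10 genes made up 0.266% to 0.412% of the counts of a library.

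Class I molecules display fragments of the cell's own proteins to cytotoxic T cells. The proteasome cuts proteins into peptides, and in the immunoproteasome the catalytic subunits encoded by *Psmb8*, *Psmb9* and *Psmb10* replace those of *Psmb5*, *Psmb6* and *Psmb7*. The TAP transporter moves the peptides into the endoplasmic reticulum, where tapasin holds the transporter beside an empty heavy chain bound to beta-2 microglobulin. Interferons induce most of these genes in many cell types, and NLRC5 acts with the RFX complex on their promoters. Spermatogonia are germ cells of the testis, a tissue known for immune privilege.

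Cultured spermatogonial stem cells (SSCs) were sequenced in 4 groups of 2 libraries, to ask how nutrient restriction and retinoic acid act on these cells. The Veh group, the control, was kept in complete SSC medium without added retinoic acid. The RA group received 100 nM retinoic acid, the vitamin A derivative that drives spermatogonial differentiation, in complete medium. The NR group (labelled EBSS) was grown in nutrient restriction medium, made of 10% complete medium and 90% Earle's balanced salt solution, and the NRRA group (labelled RA_EBSS) received both the restriction and 100 nM retinoic acid. All groups were treated for 2 days, and no gene was deleted. Every group came from primary cultures of testes of 6-day-old C57BL/6XDBA/2 pups (F1 hybrids by the study's methods), grown on irradiated embryonic fibroblasts of outbred CF1 mice, so a library can hold RNA of more than 1 cell type and of more than 1 MHC haplotype.

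Total counts ranged from 19261333 to 30023585 per library. Replicates differed by more than sampling noise in every group, with a chi-square per gene of 1.58 to 3.93, the highest in Veh. The germ cell genes *Ddx4* and *Dazl* were present in Veh at 138 and 311 CPM (counts per 1000000, scaled by TMM), but the fibroblast gene *Col1a1* stood at 3742 CPM. The 12 fibroblast markers together took 11585 to 11774 CPM in Veh, against 1308 to 1313 CPM for 10 germ cell markers. Genes of the labelled cell type were thus present, beside abundant transcripts of fibroblast marker genes. These sums do not measure the share of RNA that came from fibroblasts. *S100a4*, the fibroblast marker that the study used, had 3.15 CPM in Veh. Differences were tested with edgeR's quasi-likelihood test over all 8 libraries and are given as log2 fold changes ± standard error (SE), and a gene passed at a Benjamini-Hochberg adjusted p under 0.05. The p-values measure only the spread between these libraries. In bulk RNA, fewer cells of a type and less RNA per cell cannot be told apart.

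By GENCODE M21 on GRCm38, 7 of the 10 genes lie on chromosome 17, in the MHC. *Psmb9*, *Tap1*, *Psmb8* and *Tap2* stand side by side within 34.34 kb (chr17:34181987-34216321). *Tapbp* (chr17:33915899-33929292) and *H2-K1* (chr17:33996017-34000347) lie before this cluster, and *H2-D1* (chr17:35262730-35267499) lies behind it. *B2m* is on chromosome 2 (chr2:122147686-122153083), and *Psmb10* (chr8:105935735-105938444) and *Nlrc5* (chr8:94434356-94527272) are on chromosome 8.

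RefSeq promoters (GRCm38.p6) matched 8 of the 10 genes, and the upstream sequences of the 3 surface subunits and the stretch between *Psmb9* and *Tap1* are shown, because they let the reader see which letters genes of like pattern share. Each run is written 5′ to 3′ and ends at the base before the annotated start, and capitals mark matches, on either strand, to GGGATTCCC (a kappa B site), GAAANNGAA or GAANNGAAA (cores of the interferon-stimulated response element), TGACG (part of the X2 box) and ATTGG (the Y box). In the *Psmb9-Tap1* run, the *Tap1* start follows the last base and the *Psmb9* start precedes the first on the other strand.
H2-K1 (chr17:34000348-34000597, minus strand): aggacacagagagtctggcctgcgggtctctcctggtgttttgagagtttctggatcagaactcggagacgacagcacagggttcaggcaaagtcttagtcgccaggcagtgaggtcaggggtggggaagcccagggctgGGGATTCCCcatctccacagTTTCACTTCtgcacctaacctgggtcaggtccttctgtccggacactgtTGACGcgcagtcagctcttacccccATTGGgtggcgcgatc
H2-D1 (chr17:35262844-35263093, plus strand): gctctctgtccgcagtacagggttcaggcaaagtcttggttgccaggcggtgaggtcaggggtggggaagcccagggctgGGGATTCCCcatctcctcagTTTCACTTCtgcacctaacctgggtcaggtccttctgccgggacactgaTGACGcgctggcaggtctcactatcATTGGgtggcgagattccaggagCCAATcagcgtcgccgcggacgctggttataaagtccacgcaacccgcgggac
B2m (chr2:122147437-122147686, plus strand): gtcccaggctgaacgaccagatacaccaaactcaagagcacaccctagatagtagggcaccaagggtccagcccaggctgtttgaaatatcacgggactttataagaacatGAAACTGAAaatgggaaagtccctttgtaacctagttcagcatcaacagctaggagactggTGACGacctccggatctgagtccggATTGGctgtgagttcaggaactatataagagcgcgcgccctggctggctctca
Psmb9-Tap1 stretch (chr17:34187331-34187555, plus strand): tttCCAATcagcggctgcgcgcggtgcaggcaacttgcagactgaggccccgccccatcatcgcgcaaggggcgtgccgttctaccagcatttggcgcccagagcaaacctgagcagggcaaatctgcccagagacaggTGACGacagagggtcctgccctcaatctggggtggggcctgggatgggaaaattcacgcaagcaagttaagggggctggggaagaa

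The *H2-K1* and *H2-D1* windows were identical at 166 of 188 aligned bases (88.3%). Both held the kappa B site, at -110 to -102 in *H2-K1* and -170 to -162 in *H2-D1* (base -1 precedes the start), and the same letters stood in 0.301% of 32536 mouse promoter windows of 250 bases. Both also held GAANNGAAA, found in 6.35% of windows, whereas *B2m* held GAAANNGAA at -139 to -131, found in 7.15%. TGACG stood upstream of *H2-K1*, *H2-D1*, *B2m*, *Tap1* and *Psmb9* and in 17.9% of all windows. ATTGG stood upstream of these 5 genes and of *Tapbp*, and in 33.8% of all windows. The gamma-activated site core TTCNNNGAA was found upstream of *Psmb8* and in 7.04% of windows. The full letters TGACGT, present in 6.5% of windows, matched 0 of the 8. GAANNGAAA and TGACG were added after the sequences had been seen. By the RefSeq starts used, *Tap1* and *Psmb9* start in opposite directions 225 bases apart (chr17:34187331-34187555), so their matches are shared. GENCODE places these starts otherwise, with *Psmb9* reaching to 34187764 and *Tap1* beginning at 34187553, so that the 2 genes overlap. By GENCODE, *H2-D1* also begins at 35262730, before its window. These matches are descriptions of the letters and show no binding.

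**Figure D1:**
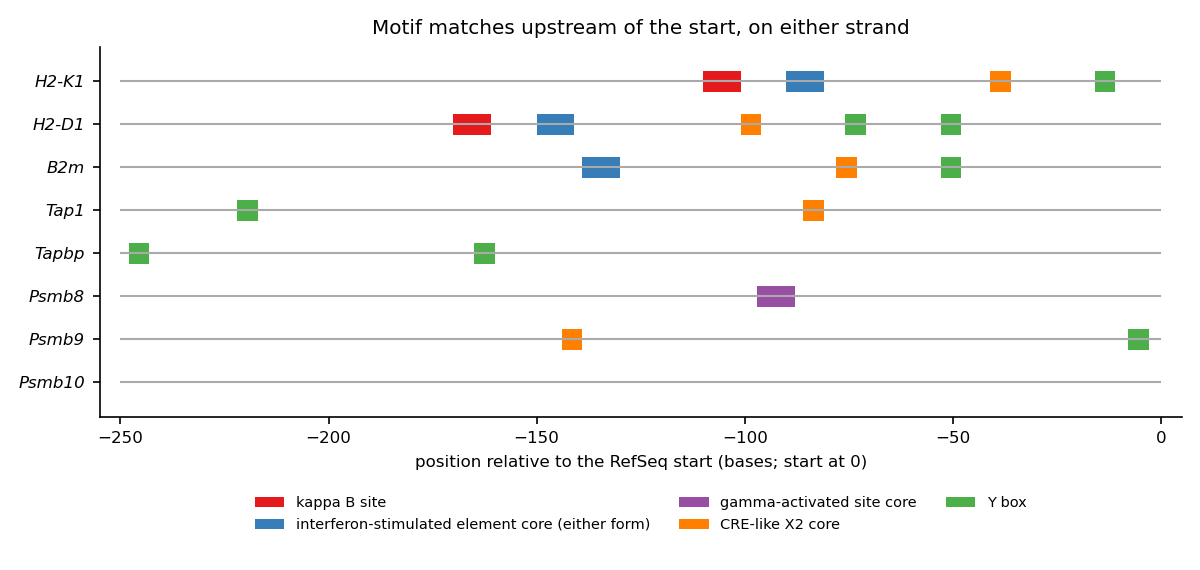
Positions of motif matches in the 250 bases before the 1 RefSeq start used for each of 8 genes (x axis, bases, where 0 marks the start), with 1 line per gene and 1 coloured box per match. H2-D1 carries the matches of H2-K1 in the same order, farther from its start, and a further Y box, and Psmb10 carries no box.

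The heavy chain *H2-K1* had 461 and 429 CPM in Veh and 411 and 392 with RA, against 678 and 666 under NR and 707 and 709 under NRRA. The second heavy chain, *H2-D1*, had 936 and 897 CPM in Veh and 810 and 763 with RA, against 1172 and 1184 under NR and 1148 and 1148 under NRRA. Both heavy chains were lowest in RA and high in either restricted medium, and no library of RA overlapped Veh. *H2-K1* was 1.51-fold higher in NR than in Veh (log2 0.59 ± 0.04, adjusted p = 3.06e-12) and 1.59-fold higher in NRRA (0.67 ± 0.04, adjusted p = 1.26e-13). *H2-D1* was 1.29-fold higher in NR (0.36 ± 0.04, adjusted p = 9.57e-09) and 1.25-fold higher in NRRA (0.32 ± 0.04, adjusted p = 3.23e-08). In RA, *H2-K1* fell by 0.15 ± 0.04 on the log2 scale (adjusted p = 0.00397) and *H2-D1* fell by 0.22 ± 0.04 (adjusted p = 2.61e-05). Per exon base, *H2-K1* amounted to 0.426 of *H2-D1* in Veh and 0.448 with RA, against 0.501 under NR and 0.541 under NRRA. The heavy chains are closely related in sequence and highly variable between mouse strains, so how reads were split between them and their relatives is uncertain.

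*B2m*, the light chain, had 1219 and 1249 CPM in Veh and 1151 and 1088 with RA, against 1608 and 1558 under NR and 1473 and 1490 under NRRA. It followed the same order as *H2-D1*, with the smallest log2 range of the 10 genes. It rose in NR by 0.36 ± 0.04 (adjusted p = 6.34e-09) and in NRRA by 0.26 ± 0.04 (adjusted p = 6.06e-07), and fell by 0.14 ± 0.04 in RA (adjusted p = 0.00255). With the trend of counts with GC content and length removed, these values for *B2m* were 0.23 in NR, 0.033 in NRRA and -0.38 in RA.

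*Tap1* and *Tap2* encode the subunits of the peptide transporter. *Tap1* had 60.9 and 58.6 CPM in Veh and 55.5 and 51.5 with RA, against 105 and 101 under NR and 98.8 and 102 under NRRA. *Tap2* had 55.4 and 52.0 CPM in Veh and 39.9 and 36.2 with RA, against 73.8 and 77.2 under NR and 61.5 and 61.5 under NRRA. *Tap1* stood alike in NR and NRRA, whose libraries overlapped, while *Tap2* was lower in NRRA than in NR. In NR, *Tap1* rose by 0.78 ± 0.05 (adjusted p = 5.11e-12) and *Tap2* by 0.49 ± 0.06 (adjusted p = 1.29e-07). In RA, *Tap1* fell by 0.17 ± 0.06 (adjusted p = 0.0231) and *Tap2* fell by 0.50 ± 0.06 (adjusted p = 3.52e-07). Of the exon bases of *Tap2*, 14.1% overlap *Gm15821* on the opposite strand, which had 19.5 CPM in Veh and 13.3 with RA, against 27.3 under NR and 21.5 under NRRA. The ratio of *Tap1* to *Tap2*, per exon base, stood at 0.769 in Veh and 0.971 with RA, against 0.943 under NR and 1.12 under NRRA.

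*Tapbp*, which encodes tapasin, had 237 and 221 CPM in Veh and 174 and 162 with RA, against 358 and 353 under NR and 246 and 241 under NRRA. NR stood above all other groups, and NRRA lay just above Veh. *Tapbp* rose in NR by 0.64 ± 0.05 (adjusted p = 6.96e-12) and fell by 0.45 ± 0.05 in RA (adjusted p = 1.48e-08). NRRA differed from Veh by 0.09 (95% interval -0.0039 to 0.18, adjusted p = 0.0939), which did not pass. Of its exon bases, 24.9% overlap the antisense gene *Gm19412*, which had 55.3 CPM in Veh and 42.0 with RA, against 84.9 under NR and 57.9 under NRRA. The study's methods describe stranded libraries, but whether reads were counted by strand is not given in the sources used here. How reads in the overlap of the antisense gene and *Tapbp* were counted is thus uncertain.

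The immunoproteasome subunit *Psmb8* had 40.3 and 37.0 CPM in Veh and 32.7 and 30.2 with RA, against 68.3 and 64.7 under NR and 58.2 and 57.6 under NRRA. *Psmb9* had 15.9 and 14.1 CPM in Veh and 8.26 and 7.98 with RA, against 25.49 and 23.996 under NR and 19.6 and 18.6 under NRRA. *Psmb10* had 47.3 and 42.6 CPM in Veh and 27.8 and 28.4 with RA, against 74.1 and 69.6 under NR and 39.9 and 40.7 under NRRA. All 3 subunits were highest in NR and lowest in RA, and they parted in NRRA, where *Psmb8* and *Psmb9* stayed above Veh. *Psmb10* lay below Veh there by 0.16 on the log2 scale, a call that depended on single libraries. With the GC and length trend removed, this *Psmb10* difference was -0.00086. In NR they rose by 0.78 ± 0.06, 0.71 ± 0.09 and 0.67 ± 0.06 in this order (adjusted p = 8.12e-11, 1.55e-07 and 8.81e-10). In RA, *Psmb8* fell by 0.30 ± 0.07 (adjusted p = 0.000705), *Psmb9* fell by 0.89 ± 0.10 (adjusted p = 9.25e-08) and *Psmb10* fell by 0.68 ± 0.07 (adjusted p = 8.15e-09). Of the exon bases of *Psmb8*, 14.7% overlap the antisense gene *Gm20496*, and *Psmb9* shares 212 bases with *Tap1* on the opposite strand. *Gm20496* had 18.2 CPM in Veh and 14.7 with RA, against 30.3 under NR and 27.4 under NRRA.

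*Nlrc5*, the class I transactivator, had 36.0 and 35.4 CPM in Veh and 17.8 and 17.3 with RA, against 37.5 and 33.9 under NR and 18.2 and 20.7 under NRRA. Its levels fell into a high range without retinoic acid and a low range with it, in either medium. *Nlrc5* fell by 1.03 ± 0.08 in RA (2.04-fold lower, adjusted p = 7.30e-11) and fell by 0.87 ± 0.08 in NRRA against Veh (1.83-fold lower, adjusted p = 2.08e-10). NR differed from Veh by -0.0045 (95% interval -0.15 to 0.14, adjusted p = 0.969), and the libraries of these groups overlapped.

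**Figure D2:**
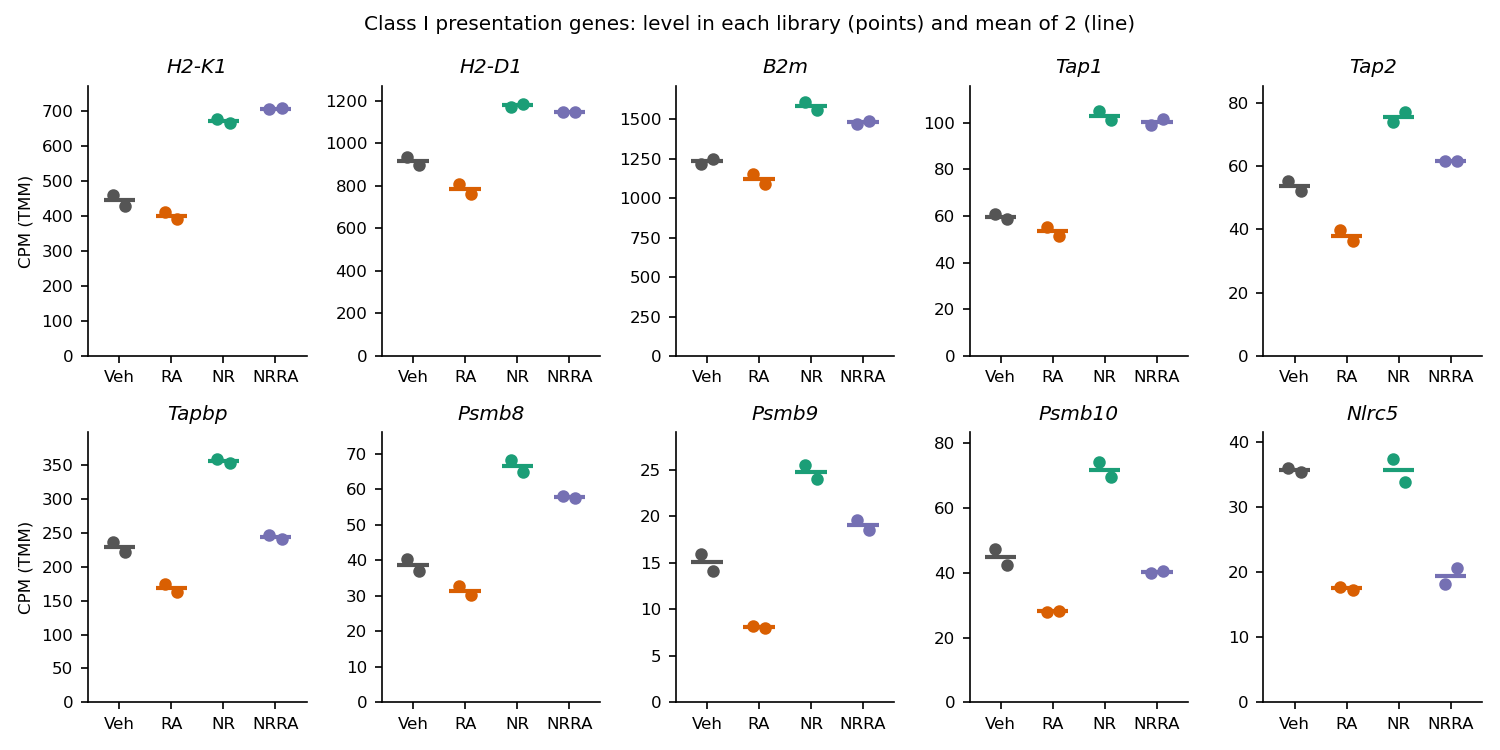
CPM after TMM scaling (y axis, from 0) of the 10 genes in the 4 groups (x axis), with 1 point per library and a line at the mean of 2. All panels but that of Nlrc5 peak in NR or NRRA, and Nlrc5 splits into Veh and NR at 33.9 to 37.5 CPM and RA and NRRA at 17.3 to 20.7 CPM.

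Levels of different genes were compared per kilobase of exon (RPKM), with all annotated exons of a gene in its length. The order of genes thus depends on these lengths. In Veh, *B2m* led with 1435 RPKM, followed by *H2-D1* with 355, *H2-K1* with 152, *Tapbp* with 63.1 and *Psmb10* with 26.4. *Tap2* had 14.2 RPKM, *Psmb8* 11.4, *Tap1* 10.9, *Nlrc5* 4.20 and *Psmb9* 4.11. The libraries of *Psmb8* and *Tap1* overlapped in Veh, as did those of *Nlrc5* and *Psmb9*. In NRRA, *Psmb9* stood at 5.21 RPKM and *Nlrc5* at 2.29.

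The class I genes were lower with retinoic acid in complete medium. All 10 passed lower in RA than in Veh, where 23.4% of tested genes passed lower and 19.8% higher. The median log2 fold change of the 10 was -0.37, against -0.019 over all tested genes. The range ran from -0.14 for *B2m* to -1.03 for *Nlrc5*, which alone passed with a fold of at least 2, as 2.75% of tested genes did in this direction. The 12 fibroblast markers together were also lower, at 8893 to 9626 CPM, with 8 lower and 1 higher, and their part in the result was not tested. Calls of *H2-K1*, *B2m* and *Tap1* depended on single libraries. Without Veh replicate 1, *H2-K1* (-0.08, adjusted p = 0.0968) and *Tap1* (adjusted p = 0.156) did not pass. Without RA replicate 2, *H2-K1* (adjusted p = 0.0706), *B2m* (adjusted p = 0.0592) and *Tap1* (-0.11, adjusted p = 0.280) did not pass, and *Tap1* was also lost without NR replicate 1 (adjusted p = 0.0664) or replicate 2 (adjusted p = 0.0688). With library totals in place of TMM, which shifts the median of all genes by 0.10, 7 of 10 passed lower without *H2-K1* (-0.049), *B2m* (-0.040) and *Tap1* (-0.063), *H2-D1* was at -0.12 and *Psmb8* at -0.20, and *Nlrc5* fell by 0.92, short of 2-fold. With the GC and length trend removed, *H2-K1* (-0.028) and *Tap1* (-0.026) did not pass, while *B2m* fell by 0.38, *H2-D1* was at -0.094 and *Psmb8* at -0.20. With only RA and Veh in the fit, *H2-K1* (adjusted p = 0.0761), *B2m* (adjusted p = 0.0653) and *Tap1* (adjusted p = 0.140) did not. Under DESeq2, *Tap1* narrowly missed (adjusted p = 0.0528).

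Under nutrient restriction alone, 9 of the 10 genes passed higher than in Veh, where 21.7% of tested genes passed higher and 22.2% lower. The median log2 fold change was 0.61, against 0.0057 over all tested genes. The largest was *Tap1* at 1.72-fold, below the 2-fold level that 5.33% of tested genes passed upward, and the exception was *Nlrc5*. The fibroblast markers together stood at 23881 to 25122 CPM in NR, 2.10-fold above Veh, with 10 of 12 higher and *S100a4* lower. The 10 class I genes together were 1.36-fold above Veh. Each sum is weighted to its most abundant genes, such as *Col1a1* and *B2m*. By the median log2 fold change, the fibroblast markers rose by 0.83 and the class I genes by 0.61. The part of fibroblast RNA in these rises was not tested.

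With retinoic acid and nutrient restriction together (NRRA), 7 of the 10 genes passed higher than in Veh and 2 passed lower, against 30.1% and 28.7% of tested genes. The median was 0.29, against 0.030 over all tested genes. The rises ranged from 0.20 ± 0.06 for *Tap2* (adjusted p = 0.00589) to 0.75 ± 0.05 for *Tap1* (adjusted p = 5.58e-12), with *Psmb8* at 0.58 ± 0.06 and *Psmb9* at 0.34 ± 0.09. The lower genes were *Nlrc5* and *Psmb10*, which fell by 0.16 ± 0.06 (adjusted p = 0.0347). The *Psmb10* call was lost when any of Veh replicate 1 (-0.08, adjusted p = 0.372), NR replicate 1 (adjusted p = 0.0516), NR replicate 2 (adjusted p = 0.0509), NRRA replicate 1 (adjusted p = 0.157) or NRRA replicate 2 (adjusted p = 0.0893) was left out, under DESeq2 (adjusted p = 0.0560) and with no filter beyond 1 count (adjusted p = 0.0767). With library totals, *Psmb10* was also lost (-0.044, adjusted p = 0.569), *Tapbp* passed higher (0.20, adjusted p = 0.000285) and *Tap2* was at 0.31. *Tapbp* passed higher without Veh replicate 1 (0.14, adjusted p = 0.00438) and was 0.040 without Veh replicate 2. With the GC and length trend removed, *B2m* was 0.033 higher in NRRA and did not pass (adjusted p = 0.440), *Tapbp* passed higher at 0.25, *Tap2* was at 0.36, and *Psmb10* was at -0.00086. Fibroblast markers together stood at 20629 to 21199 CPM in NRRA, with 8 of 12 higher and 4 lower than Veh, and their part was not tested.

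**Figure D3:**
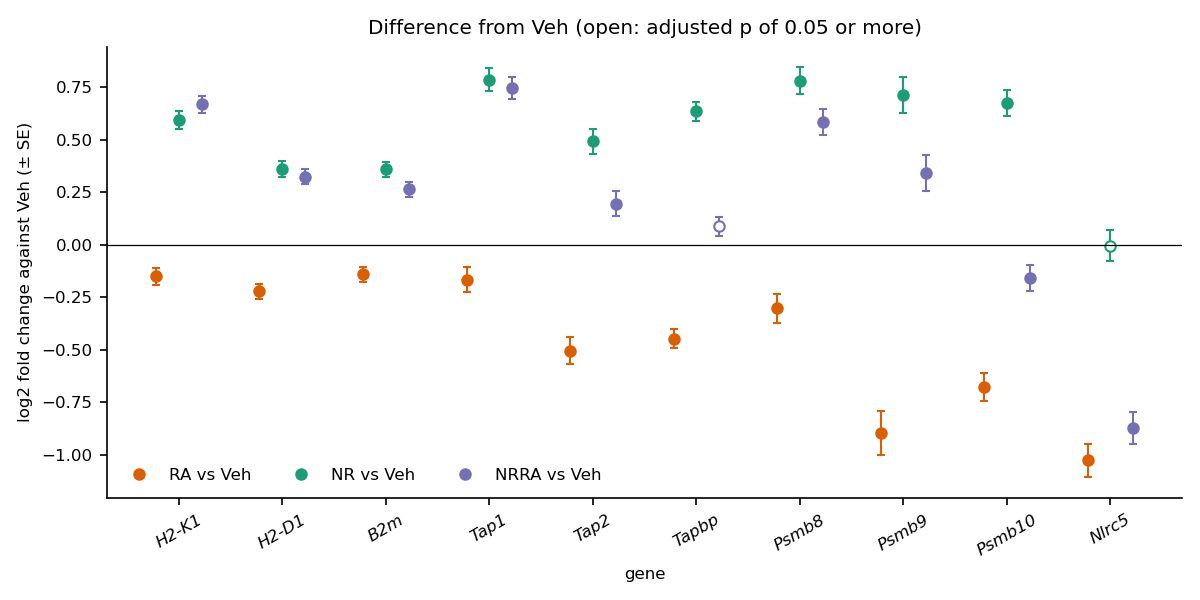
Log2 fold change against Veh (y axis, ± SE) of each of the 10 genes (x axis) in RA, NR and NRRA, 2 libraries per group; open points did not pass. The RA points lie at -0.14 to -1.03, the NR points of 9 genes at 0.36 to 0.78, and the NRRA points run from 0.75 for Tap1 to -0.87 for Nlrc5.

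The effect of the medium was also seen with retinoic acid present. Against RA, 9 of the 10 genes passed higher in NRRA, where 20.9% of tested genes passed higher, with a median of 0.62 against 0.016. *Psmb9* was 2.35-fold higher (1.24 ± 0.09), beyond the 2-fold level that 4.61% of tested genes passed upward. *Nlrc5* differed by 0.15 (95% interval -0.018 to 0.32, adjusted p = 0.151), and this value was 0.24 without NRRA replicate 1 and 0.053 without NRRA replicate 2. Between the single treatments, all 10 genes passed higher in NR than in RA, where 24.5% of tested genes did, with a median of 1.01 against -0.0045. Of these, *Tapbp*, *Psmb8*, *Psmb9*, *Psmb10* and *Nlrc5* passed with at least 2-fold, as 6.87% of tested genes did, led by *Psmb9* with 1.61 ± 0.09. These comparisons share groups with those against Veh.

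The effect of retinoic acid within the restricted medium was uneven over the pathway. Of the 10 genes, 7 passed lower in NRRA than in NR, where 22.1% of tested genes passed lower, and the median was -0.25 against 0.0056. *Nlrc5* fell by 0.87 ± 0.07, *Psmb10* fell by 0.83 ± 0.06 and *Tapbp* fell by 0.55 ± 0.04, while *Psmb9* fell by 0.37 ± 0.08, *Tap2* fell by 0.30 ± 0.06, *Psmb8* fell by 0.20 ± 0.06 and *B2m* fell by 0.095 ± 0.04. The heavy chains and *Tap1* did not pass, with 0.075 for *H2-K1* (95% interval -0.0070 to 0.16), -0.038 for *H2-D1* (-0.11 to 0.039) and -0.038 for *Tap1* (-0.14 to 0.066). With library totals or with the trend of counts with GC content and length removed, *H2-D1* (0.043 and 0.016) and *Tap1* (0.043 and 0.032) lay on the other side of 0, and *H2-K1* passed higher (0.16 and 0.13, adjusted p = 0.00139 and 0.000302). Library totals also ended the calls of *B2m* (-0.014, adjusted p = 0.754) and *Psmb8* (-0.12, adjusted p = 0.0950), which left 5 lower genes, while *B2m* was at -0.20 with the trend removed. With only NR and NRRA in the fit, *H2-K1* passed higher at 0.076 (adjusted p = 0.00840). *B2m* lost its call without NR replicate 1 (adjusted p = 0.133), NRRA replicate 1 (adjusted p = 0.177) or NRRA replicate 2 (adjusted p = 0.105), and *Psmb8* without NR replicate 1 (adjusted p = 0.0661) or NRRA replicate 2 (adjusted p = 0.0634). In the same comparison, 10 of 12 fibroblast markers passed lower, and their part was not tested.

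Whether the effect of retinoic acid depended on the medium was tested as an interaction, NRRA against NR minus RA against Veh. It passed for 3 genes, each with a positive value, where 6.37% of tested genes passed so. The values were 0.52 ± 0.13 for *Psmb9* (adjusted p = 0.00725), 0.23 ± 0.06 for *H2-K1* (adjusted p = 0.00803) and 0.18 ± 0.05 for *H2-D1* (adjusted p = 0.0190). Of the 3, only *Psmb9* passed lower with retinoic acid in both media. *H2-K1* and *H2-D1* passed lower in complete medium and did not pass in either direction in restricted medium. The median of the 10 was 0.14, against 0.018 over all tested genes. All 3 calls were lost without RA replicate 2 (adjusted p = 0.0625, 0.0579 and 0.117) or NR replicate 2 (adjusted p = 0.0649, 0.122 and 0.137). Without Veh replicate 1, *Psmb9* (0.39, adjusted p = 0.0636) and *H2-D1* (0.12, adjusted p = 0.0700) were lost, and *H2-K1* was 0.14 (adjusted p = 0.040). In that fit *Tapbp* (-0.19, adjusted p = 0.0167) and *Psmb10* (-0.27, adjusted p = 0.0341) passed with negative values. Without NR replicate 1, *H2-K1* (adjusted p = 0.0789) and *H2-D1* (adjusted p = 0.210) were lost, and *H2-D1* was also lost without NRRA replicate 1 (adjusted p = 0.0701) or NRRA replicate 2 (adjusted p = 0.0730). *H2-D1* did not pass under DESeq2 (adjusted p = 0.0584) or with the GC and length trend removed (0.11, adjusted p = 0.0578), a fit in which *B2m* (0.19) and *Tapbp* (-0.18) passed. For *Nlrc5* the interaction was 0.16 (95% interval -0.070 to 0.38), which did not pass.

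The immunoproteasome subunits and the subunits they replace moved in opposite directions in NR. In NRRA this held for *Psmb8* and *Psmb9*, whereas *Psmb10* lay below Veh as *Psmb7* did. That *Psmb10* call depended on single libraries and on the scaling. *Psmb5*, *Psmb6* and *Psmb7* passed lower in NR, by -0.34 ± 0.06, -0.28 ± 0.05 and -0.43 ± 0.05, and in NRRA, by -0.45, -0.41 and -0.57. All 14 constitutive core genes passed lower than Veh in both NR and NRRA, and 10 of 14 did in RA, where 22.2%, 28.7% and 23.4% of all tested genes passed lower. Per exon base, *Psmb8* amounted to 0.172 and 0.176 of *Psmb5* in Veh and 0.164 and 0.150 with RA, against 0.405 and 0.355 under NR and 0.369 and 0.346 under NRRA. *Psmb9* amounted to 0.0511 and 0.0480 of *Psmb6* in Veh and 0.0288 and 0.0278 with RA, against 0.101 and 0.0976 under NR and 0.0872 and 0.0801 under NRRA. *Psmb10* amounted to 0.747 and 0.643 of *Psmb7* in Veh and 0.522 and 0.490 with RA, against 1.57 and 1.43 under NR and 0.940 and 0.908 under NRRA. In each of the 3 pairs, both NR and NRRA libraries lay above Veh and both RA libraries below it, *Psmb10* included. The ratios were not tested, and the share of all gene pairs that separate in this way was not computed. Exon overlaps of 14.7% with *Gm20496* for *Psmb8*, 12.1% with *Mir686* for *Psmb5* and 11.8% with *Nek6* for *Psmb7* are a limit on these ratios. All annotated exons of a gene counted in its length, which was 1705 bases for *Psmb10* and 3421 for *Psmb7*. The size of a ratio, unlike its order over the groups, depends on these lengths. In CPM, *Psmb10* stayed below *Psmb7* in NR, at 71.9 against 96.2.

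**Figure D4:**
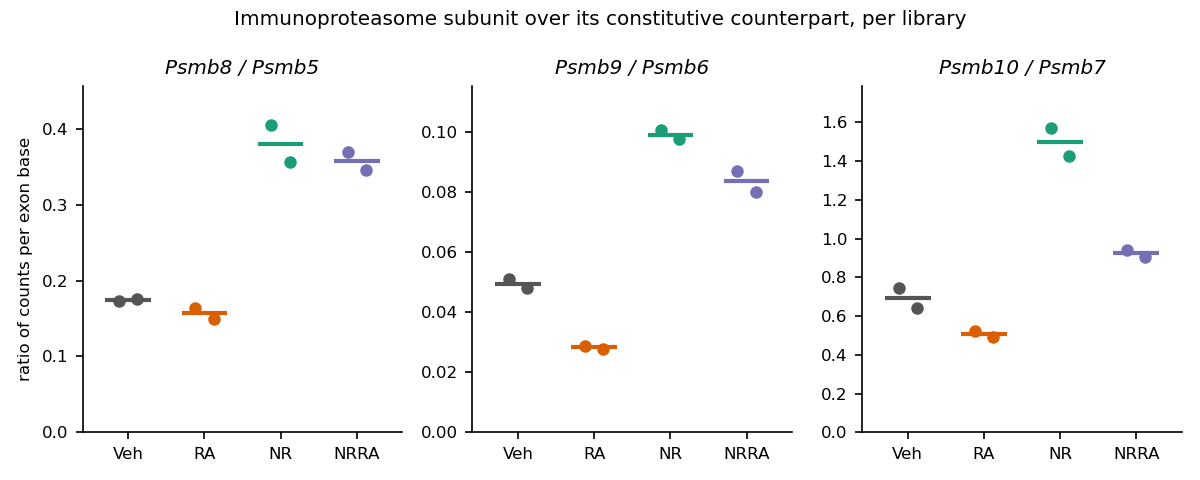
Ratio of counts per exon base (y axis, from 0) of each immunoproteasome subunit to the constitutive subunit it replaces, by group (x axis), with 1 point per library and a line at the mean. The means rise from 0.174 in Veh to 0.380 in NR for Psmb8, from 0.0495 to 0.0992 for Psmb9 and from 0.695 to 1.501 for Psmb10.

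Of 21 further class I heavy chain genes, 19 were tested, and 13 passed higher and 2 lower in NR, 11 higher and 2 lower in NRRA, and 1 higher and 10 lower in RA. For these and the lists that follow, the shares of all tested genes were 21.7% higher and 22.2% lower in NR, 30.1% and 28.7% in NRRA, and 19.8% and 23.4% in RA. *H2-T23*, which encodes the nonclassical chain Qa-1, rose by 1.05 ± 0.07 in NR and by 0.81 ± 0.07 in NRRA and fell by 0.47 ± 0.08 in RA. In NRRA, *H2-Bl* (1.41 ± 0.33, at 0.589 CPM in Veh), *H2-T24* (1.05 ± 0.15), *H2-Q2* (1.05 ± 0.11) and *H2-Q6* (1.02 ± 0.07) passed with at least 2-fold. Their reads can be shared with other heavy chains.

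Among 10 further genes of peptide loading and trimming, 6 passed higher in NR, 4 higher and 4 lower in NRRA, and 1 higher and 6 lower in RA. *Erap1*, the aminopeptidase that trims peptides in the endoplasmic reticulum, rose by 0.88 ± 0.06 in NR and 0.48 ± 0.06 in NRRA (11.5% of its exon bases overlap *Cast*). The chaperone gene *Calr* rose by 0.15 ± 0.04 in NR and fell by 0.12 ± 0.04 in NRRA, and *Pdia3*, an oxidoreductase of the loading complex, rose by 0.098 ± 0.04 in NR and fell by 0.13 ± 0.04 in NRRA. *Canx*, encoding calnexin, differed by 0.052 in NR (95% interval -0.040 to 0.14) and did not pass. Of 9 proteasome activator and assembly genes, 2 passed higher and 3 lower in NR, and 1 higher and 5 lower in NRRA, so that the count higher in NR lay close to the share of all tested genes and that in NRRA below it. The PA28 activator genes *Psme1* and *Psme2* rose in NR by 0.51 ± 0.05 and 0.33 ± 0.05, and fell by 0.28 ± 0.05 and 0.38 ± 0.05 in RA. In NRRA, *Psme2* fell by 0.26 ± 0.05, while *Psme1* differed by -0.095 (95% interval -0.20 to 0.0086).

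Of 20 regulators of class I genes, 11 passed higher and 3 lower in NR, 9 higher and 7 lower in NRRA, and 2 higher and 9 lower in RA. The interferon regulatory factors *Irf7* (1.07 ± 0.06) and *Irf8* (1.17 ± 0.10) rose in NR. *Irf1*, a direct activator of class I promoters, had 119 CPM in Veh and 73.7 with RA, against 145 under NR and 84.8 under NRRA, and fell by 0.69 ± 0.05 in RA and by 0.49 ± 0.05 in NRRA and rose by 0.29 ± 0.05 in NR. *Prdm1*, a transcriptional repressor, fell by 1.54 ± 0.16 in RA and by 1.70 ± 0.16 in NRRA. *Rfx5*, a subunit of the RFX complex that NLRC5 works with, rose by 0.24 ± 0.07 in NR and differed by -0.15 in NRRA (adjusted p = 0.0802), with 26.8% of its exon bases under *B230398E01Rik*.

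Transcripts of the interferon genes examined were at the limit of detection, and other interferon genes were not examined. Of 9 interferon genes, 7 had at most 3 counts in every library, and the 9 together reached 0.153 to 0.347 CPM. *Ifnb1* had at most 7 counts and *Ifne* at most 4 in a library, and the 9 did not pass the filter. A list of 13 genes held interferon receptors, kinases and regulators of their signalling. Of these, 6 passed higher and 3 lower in NR, 7 higher and 4 lower in NRRA, and 2 higher and 4 lower in RA. The counts lower in NR and NRRA and both counts in RA lay close to the shares of all tested genes. The kinase gene *Jak2* rose by 1.10 ± 0.06 in NR. In NRRA the receptor genes *Ifngr1* (1.85 ± 0.06) and *Ifnar2* (1.03 ± 0.06) rose, and *Socs3*, an inhibitor of JAK-STAT signalling, fell by 1.61 ± 0.05.

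Class II presentation, which serves helper T cells, stood apart from class I in level. Its 11 genes together reached 36.3 to 46.3 CPM, against 2577 to 4201 CPM for the 10 class I genes. Of 9 class II genes tested, 1 passed higher and 1 lower in NR, and 1 higher and 2 lower in NRRA, each below the share of all tested genes. *H2-Oa*, at 0.688 CPM in Veh, fell by 1.52 ± 0.47 in NRRA, with 22.8% of its exon bases under *BC051537*. *H2-Eb2* had 9 and 16 counts in RA, and at most 3 in a Veh library, 2 in an NR library and 7 in an NRRA library. Its level in RA was at least 3.32-fold that of Veh, against a floor of 3 counts per library. It passed the filter on low counts only through RA, where it was high, so this difference is no support for a rise.

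The summed class I genes and the summed fibroblast markers had the same order of groups, but not every gene in them did. *H2-K1* was highest in NRRA, and *Nlrc5* lay below Veh there, as did *Psmb10*, whose call depended on single libraries and on the scaling. Of the fibroblast markers, *Col5a1*, *Lum*, *Fbn1* and *S100a4* were lower in NRRA than in Veh, and *Pdgfra* was higher in RA. The 10 class I genes together took 3037 to 3109 CPM in Veh and 2577 to 2728 with RA, against 4132 to 4201 under NR and 3871 to 3888 under NRRA. Relative to Veh, the class I sum was 0.863 with RA, 1.36 under NR and 1.26 under NRRA, and the fibroblast sum 0.793, 2.10 and 1.79. Both sums are weighted to their most abundant genes. Germ cell markers together stood at 1173 to 1231 CPM with RA, 1480 to 1501 under NR and 1200 to 1218 under NRRA, with 4 of 10 higher and 5 lower in RA, 5 higher and 2 lower in NR, and 4 higher and 5 lower in NRRA. The 10 macrophage and leukocyte markers took 298 to 303 CPM in Veh and 242 to 263 with RA, against 340 to 343 under NR and 319 to 330 under NRRA, again in the same order of groups, with *Ptprc* at 3.70 CPM and *Adgre1* at 57.5 CPM in Veh. Of these markers, 5 passed lower in RA, 4 higher in NR, and 5 higher and 2 lower in NRRA. Endothelial markers took 8.64 to 15.5 CPM, and relative to Veh their sum was 0.843 with RA, 0.724 under NR and 0.581 under NRRA. Sertoli and Leydig markers took 12.2 to 25.4 CPM, and their sum was 1.80 with RA, 1.04 under NR and 0.941 under NRRA. From which cells the class I transcripts came was not tested.

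**Figure D5:**
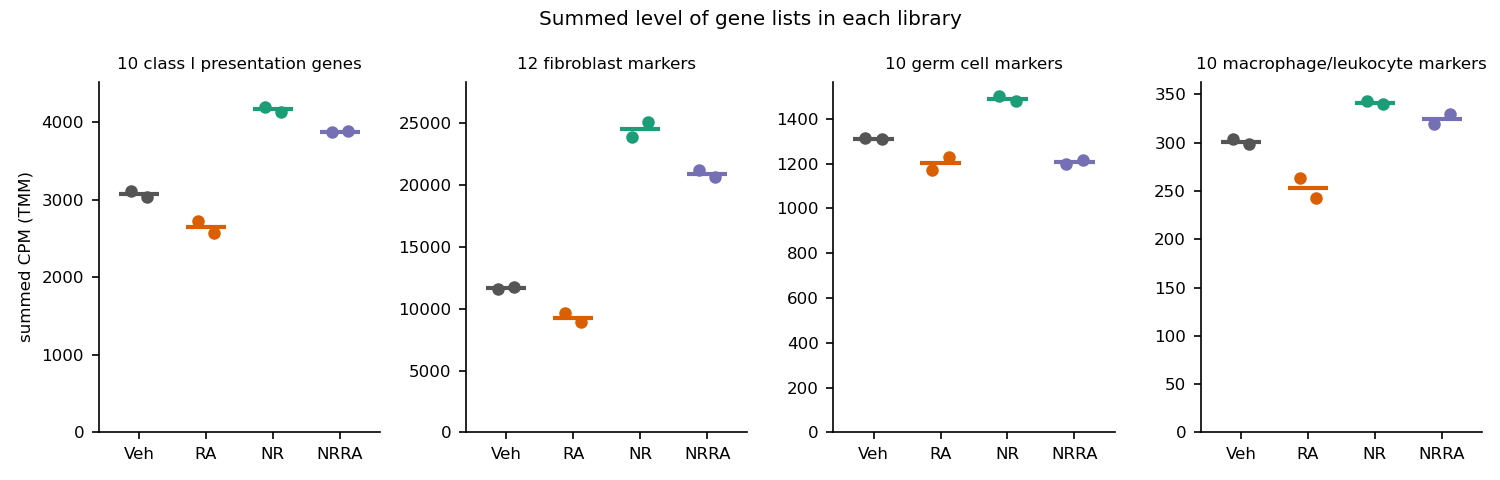
Summed CPM (y axes, each from 0) of the 10 class I genes, 12 fibroblast markers, 10 germ cell markers and 10 macrophage and leukocyte markers in the 4 groups (x axis), with 1 point per library and a line at the mean. Class I and fibroblast sums are lowest in RA and highest in NR, while the germ cell sums of RA and NRRA overlap.

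The genes most like the mean profile of the 10, by Pearson's r of log2 CPM over the 8 libraries among 2519 variable genes, were *Serpina3g* (0.996), *Bicc1* (0.996), *Col6a1* (0.995), *Sulf1* (0.994), *Sparc* (0.994), *Atp2b4* (0.994), *Ifitm2* (0.994) and *Col6a2* (0.994). Of these, *Col6a1* is among the fibroblast markers, *Sparc* and *Col6a2* encode matrix proteins, and *Ifitm2* belongs to an interferon-induced family. *Serpina3g* had 84.5 CPM in Veh and 32.5 with RA, against 247 under NR and 151 under NRRA. Gene by gene, *H2-Q4* was closest to *H2-K1*, *Pltp* to *H2-D1*, *Steap4* and *Gbp2* to *B2m*, *C1s1* to *Tap1*, *Col6a2* to *Tap2*, *Lmo4* to *Tapbp*, *Stat2* to *Psmb8*, *Fzd2* to *Psmb9* and the germ cell gene *Tdrd1* to *Psmb10*. *Nlrc5* was closest to *Chrna4* (33.5 CPM in Veh and 4.47 with RA, against 32.8 under NR and 5.12 under NRRA) and *Kif26a*. Among the 10 themselves, r was 0.993 for *H2-K1* with *Tap1*, 0.992 for *B2m* with *Psmb8*, 0.991 for *Tap2* with *Psmb9* and 0.976 for *Tapbp* with *Psmb10*, but 0.138 for *Nlrc5* with *H2-K1*. These values describe 8 libraries in 4 groups and mostly reflect the group means.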

How the data were processed

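RNA of cultured SSCs was sequenced as poly(A) libraries, and 8 libraries in 4 groups of 2 were used, grouped by the sample labels. The authors mapped the reads and deposited raw counts per gene, as whole numbers without normalization. The submitters' processing notes name bcl2fastq, STAR 2.6.1c, featureCounts 1.6.4 and mm10, and the strand setting is not given in the sources used here. Reads of C57BL/6, DBA/2 and CF1 alleles were thus set against 1 reference genome, which can lower counts of variable MHC genes.

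Counts were filtered with filterByExpr, scaled by TMM and tested with glmQLFit and glmQLFTest of edgeR 4.0.16 in R 4.3.3, fitted to all 8 libraries with 1 coefficient per group. Adjusted p-values cover the 20477 tested genes, and CPM is counts per 1000000 of the TMM-scaled total. With at least 19261333 counts per library, 1 CPM is about 20 reads or more. The NR against Veh fit was also run on simulated counts with known changes. Alternatives were DESeq2 1.42.0, its size factors, library totals, no filter beyond 1 count, a replicate block, removal of the GC and length trend, edgeR's glmTreat against a fold of 1.2, fits of only the groups compared and leaving out each library. Same-numbered replicates did not deviate together (correlations of -0.033 to 0.023), so the numbers were not taken as pairs.

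Of 55421 identifiers, 55240 were in GENCODE M21, the source of coordinates and exon lengths. All annotated exons of a gene counted in its length, so the size of ratios per exon base and of RPKM depends on them. Promoters came from RefSeq (GRCm38.p6). Figures were drawn with matplotlib 3.10.9. The 10 genes and the gene lists were chosen with earlier results of these data known. The text names all 10 genes, 13 fixed genes of the lists except 1 that is not reported here, and per list up to 4 genes that passed with at least 2-fold against Veh.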

Additional observations from a re-analysis of the deposited data

Results flagged for a closer look

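The effect of retinoic acid differed between the media, by the interaction test of edgeR, for 3 of the 10 genes. The difference in log2 fold change, restricted minus complete medium, was 0.23 for *H2-K1*, 0.18 for *H2-D1* and 0.52 for *Psmb9*. For *H2-K1*, the change with retinoic acid was -0.15 in complete and 0.075 in restricted medium, for *H2-D1* it was -0.22 and -0.038, and for *Psmb9* it was -0.89 and -0.37. All 3 calls were lost when RA replicate 2 or NR replicate 2 was left out.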

How the results depend on the processing

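The rise of 9 genes in NR, the 9 higher genes in NRRA against RA and the 10 higher genes in NR against RA kept their counts within 1.5-fold under all alternatives, and the fit with DESeq2 size factors moved no call.

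Library totals without TMM shifted the median of all tested genes in NRRA against Veh from 0.030 to 0.143. The share of higher genes among all calls went from 45.8% to 64.6% in RA against Veh, from 51.2% to 63.1% in NRRA against Veh, from 49.0% to 63.8% in NRRA against NR and from 50.8% to 40.7% in NR against RA. In RA against Veh, the count of genes at least 2-fold lower went from 1 to 0 with library totals, with the GC and length trend removed and with only the groups compared, and it was 0 to 1 when libraries were left out. The adjusted p of *Nlrc5* stayed under 0.05 in each. The count lower in NRRA than in Veh went from 2 to 1 with DESeq2, library totals, no filter, the GC and length trend removed and glmTreat, and was 1 to 2 with libraries left out. The count higher in NRRA than in NR went from 0 to 1 (*H2-K1*) with library totals, the trend removed and only the groups compared. Negative interactions went from 0 to 1 with the trend removed, and were 0 to 2 with libraries left out, while positive ones were 0 to 3. With glmTreat, 5 genes were lower in RA, 4 were higher in NRRA than in Veh, 3 were lower in NRRA than in NR, and the interaction kept 0. The sign of *Nlrc5* in NR against Veh turned with library totals (0.028), no filter (0.0055), the trend removed (0.023) and only the groups compared (0.0066), and with libraries left out it ranged from -0.054 to 0.087 (0.026 without Veh replicate 1). *H2-D1* turned in NRRA against NR with library totals (0.043) and the trend removed (0.016), and so did *Tap1* (0.043 and 0.032). The interaction of *B2m* ranged from -0.013 (without NR replicate 2) to 0.090 (without RA replicate 1) with libraries left out, was -0.0030 without Veh replicate 2, and passed at 0.19 (adjusted p = 0.00802) with the trend removed. The cause was not tested for any of these.

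With the replicate block, all 7 comparisons gave the same counts of class I genes, such as 10 lower in RA and 9 higher in NR, and the interaction of *Psmb9* was 0.51. For the whole table, the interaction called 1304 higher and 1348 lower genes, against 789 and 926 with DESeq2 and 362 and 510 with glmTreat. With 2 libraries per group and 4 residual degrees of freedom, small differences rest on few values, and *Psmb9* at 162 to 632 counts had the widest errors of the 10.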
